A study of Nicotiana tabacum with 9 samples.

Results

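The comparison described here is of *ATG2*-silenced with WT tobacco pollen, 3 libraries against 3, across 26199 genes out of 76785 gene identifiers in the tables. Genes were included when they reached 0.5 FPKM (a fragment count set against transcript length and library size) in at least 3 of these 6 libraries, whatever their change. The plants were *Nicotiana tabacum* of the cultivar Petite Havana SR1, grown in a glasshouse, and the libraries were made from their bicellular pollen. *ATG2*-silenced plants carried an RNAi construct against the autophagy gene *ATG2*, and WT plants carried none. A further 3 libraries of *ATG5*-silenced pollen of the same cultivar entered the estimate of the spread. Their levels are given beside some genes as deposited FPKM, without scaling between libraries. The sources used here give neither the promoter of the RNAi construct nor how many independent lines or plants were pooled. The libraries of each genotype are described as independent biological replicates.

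Autophagy delivers cytoplasm and organelles to the vacuole for degradation, inside vesicles with a double membrane called autophagosomes. ATG2 is a lipid transfer protein that, together with ATG9 and ATG18, supplies membrane to the growing autophagosome, whereas ATG5 acts in the conjugation of ATG12 and ATG8. Mature tobacco pollen is shed with a vegetative cell and a generative cell and already holds most of the mRNA that germination draws on. The comparison asks which of these transcripts differ when *ATG2* is silenced.

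In these data few genes were called changed. Those that were called were mainly higher in *ATG2*-silenced pollen, and long noncoding RNAs and transcripts outside the annotation made up most of them. Among genes with a name, a glutamine synthetase gene and a glyceraldehyde-3-phosphate dehydrogenase gene were called higher, whereas *hsp90*, the MAP kinase gene *MPK11* and *ATG2* itself were called lower.

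Of the genes tested, 20341 are annotated and 5858 are unannotated transcripts. A gene name was at hand for 446, so most genes below are given by their identifier alone. Total FPKM lay between 971812.7 and 1030771.6 in the *ATG2*-silenced libraries and between 944648.4 and 963914.5 in the WT libraries. The tables hold no read counts, and the depth behind each value is therefore unknown. The tables of all *ATG2*-silenced libraries and of WT replicate 3 give 1 decimal, while those of WT replicates 1 and 2 give 2 decimals. Across the genes tested, Pearson's r of log2 values was 0.968 to 0.980 among *ATG2*-silenced libraries and 0.971 to 0.974 among WT libraries. Between both genotypes it was 0.962 to 0.974 with WT replicate 3 and 0.954 to 0.966 with WT replicates 1 and 2. Such values are taken across genes, and genes are not replicates.

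The targeted gene was examined first. *ATG2* (GeneID:107801867) stood at 0.2, 0.3 and 0.2 FPKM in the 3 *ATG2*-silenced libraries, against 1.18, 1.04 and 0.9 FPKM in WT. Each silenced library was below each WT library, and the silenced mean was 22.4% of the WT mean. The log2 change was -1.11 (limma, standard error 0.14, Benjamini-Hochberg adjusted p = 0.00805), and at these low levels its size depends on the value added, at -1.87 with 0.1 added and -0.75 with 1 added. An exact two-sided permutation test on FPKM gave p = 0.10, the smallest that 3 libraries against 3 allow. The adjusted p of *ATG2* was between 0.0109 and 0.0414 when any single library was left out. *ATG5* (GeneID:107810645) stood at 1.3, 1.8 and 1.5 FPKM in *ATG2*-silenced pollen, against 1.04, 1.5 and 1.6 FPKM in WT. These ranges overlapped (exact two-sided permutation test, p = 0.70), and limma gave a log2 change of 0.02 (adjusted p = 0.965). In *ATG5*-silenced pollen, *ATG2* itself was at 0.65, 0.58 and 0.57 FPKM.

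**Figure D1:**
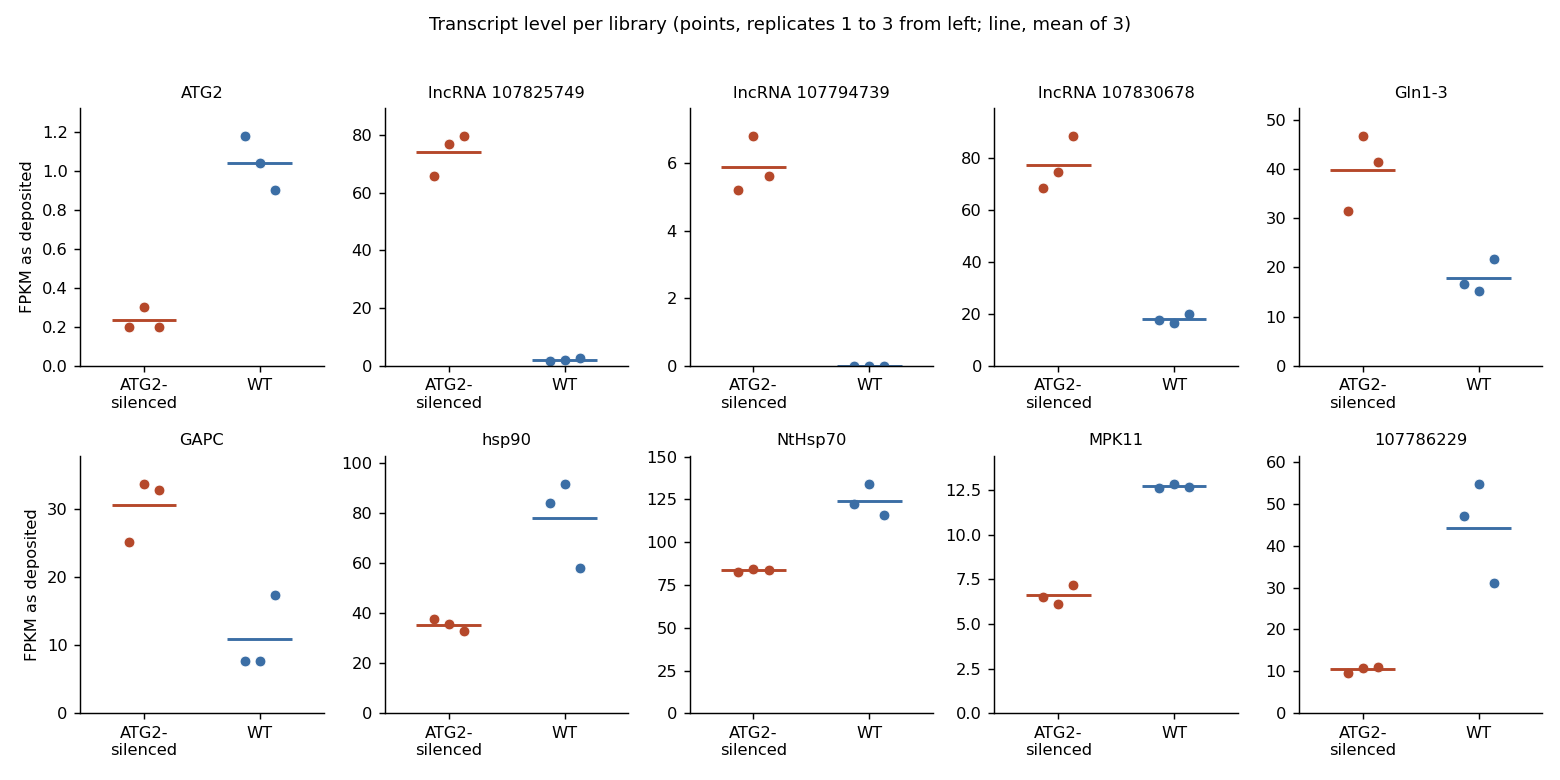
FPKM as deposited (vertical axes, each from 0) of 10 genes in the 3 *ATG2*-silenced and the 3 WT libraries, with a line at each mean. The groups do not overlap in any panel, and lncRNA 107794739 lies at 0 in the 3 WT libraries.

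A gene is called here when its adjusted p was under 0.05 and its fold above 2 or below 0.5, on log2 values of scaled FPKM with 0.5 added. By this rule 157 genes were higher in *ATG2*-silenced pollen, which is 0.599% of those tested, and 52 were lower, which is 0.198%. By the adjusted p alone, 255 genes were higher (0.973%) and 155 were lower (0.592%). An unadjusted p under 0.05 was reached by 4901 genes (18.7%), the share against which the counts at an unadjusted p below are read. The groups did not overlap for any of the 209 called genes. Over all genes tested, the 3 *ATG2*-silenced libraries were all above the 3 WT libraries for 3911 genes (14.9%) and all below them for 3147 (12%). The median log2 change over all tested genes was 0.03.

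Most called genes changed by 2-fold to 4-fold. Among those higher, 100 had a log2 change between 1 and 2, 38 between 2 and 3, and 19 above 3, with a median of 1.58. Among those lower, 43 lay between 1 and 2, 6 between 2 and 3, and 3 beyond 3 in size, with a median size of 1.37. In 19 of the genes called higher all 3 WT libraries were listed at 0, and in 6 of those called lower all 3 *ATG2*-silenced libraries were. For these genes the size of the log2 change depends on the 0.5 that was added. They entered the test through the group where they are higher alone. Libraries at 0 also add no spread to the estimate, so the standard errors and adjusted p of such genes can be too small. Between 2 and 5 FPKM, 63 genes were called higher and 15 lower out of 5965. Among the 1305 genes with a mean of at least 100 FPKM, 1 was called higher and 0 were called lower.

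**Figure D2:**
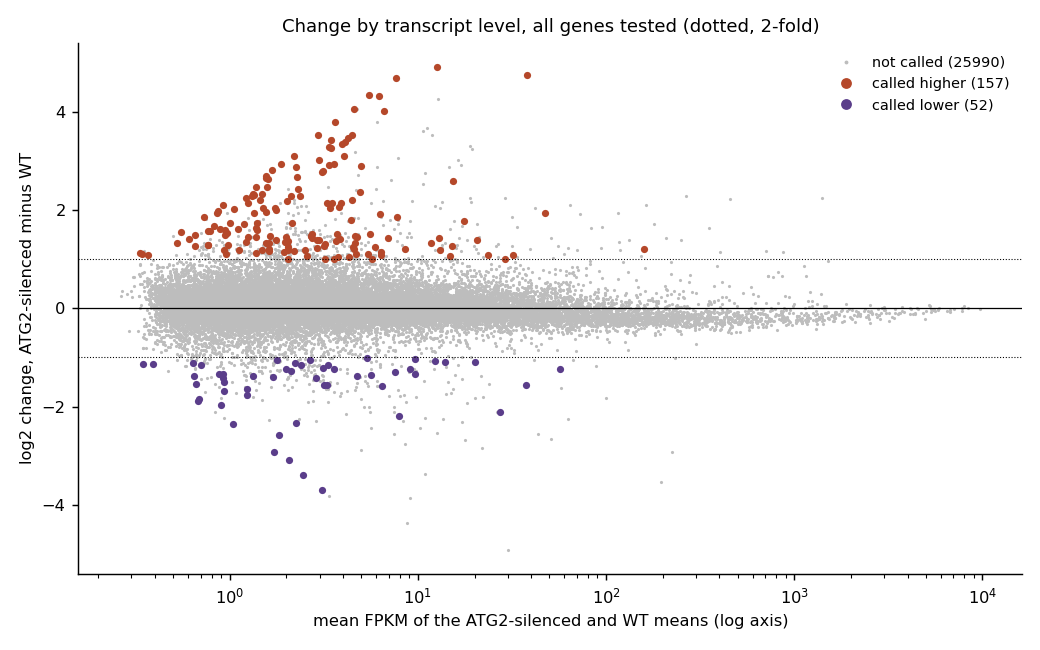
Log2 change (vertical axis, *ATG2*-silenced minus WT) against the mean FPKM of both groups (horizontal log axis) for the genes tested. The 157 genes called higher and the 52 called lower lie mostly under 10 FPKM, and dotted lines mark 2-fold.

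The calls were counted by kind of gene. Of 16255 protein coding genes, 33 were called higher (0.203%) and 19 lower (0.117%). Of 1381 long noncoding RNAs (lncRNAs, transcripts without a long open reading frame), 15 were higher (1.09%) and 4 lower (0.29%). Unannotated transcripts gave 100 higher (1.71%) and 23 lower (0.393%) out of 5858. Of 131 pseudogenes, limma called 0 in either direction. The 2500 annotated genes without an entry in the RefSeq table gave 9 higher and 6 lower. These shares were not tested against each other, and kinds of gene differ in transcript level as well.

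**Figure D3:**
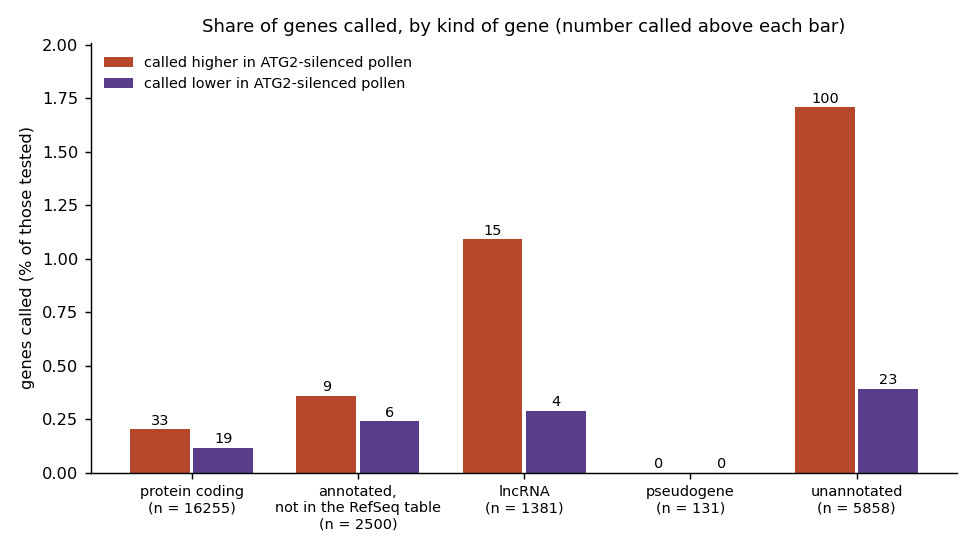
Genes called higher (left bar) and lower (right bar) in *ATG2*-silenced pollen, as a percentage of those tested, by kind of gene. Unannotated transcripts reach 1.71% and lncRNAs 1.09%, against 0.203% of protein coding genes.

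The lncRNAs included the annotated gene of largest change. GeneID:107825749 stood at 65.9, 77.1 and 79.8 FPKM in *ATG2*-silenced pollen, against 1.62, 2.01 and 2.5 FPKM in WT. Its mean was 36.4 times that of WT, and the log2 change was 4.76 (limma, standard error 0.11, adjusted p = 2.42e-07). The highest WT library was at 2.5 FPKM and the lowest *ATG2*-silenced library at 65.9 FPKM. In *ATG5*-silenced pollen it was at 20.97, 20.77 and 21.95 FPKM, in a comparison that shares the WT libraries. GeneID:107830678, more abundant in WT, stood at 68.5, 74.6 and 88.6 FPKM in *ATG2*-silenced pollen, against 17.52, 16.46 and 19.8 FPKM in WT. That is a log2 change of 1.94 (limma, standard error 0.093, adjusted p = 2.68e-05), with 65.03, 63.58 and 61.58 FPKM in *ATG5*-silenced pollen. GeneID:107775768 stood at 13.2, 10.1 and 14.9 FPKM, against 2.51, 2.5 and 3.4 FPKM in WT (log2 change 1.87, limma, adjusted p = 5.34e-04). These lncRNAs kept an adjusted p under 0.05 whichever single library was left out.

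GeneID:107794739 was a lncRNA listed at 0 in the 3 WT libraries. It stood at 5.2, 6.8 and 5.6 FPKM in *ATG2*-silenced pollen, and at 0, 0.09 and 0.09 FPKM in *ATG5*-silenced pollen. No fold can be given against 0, and the log2 change was 2.66 to 5.76 depending on the value added and the scaling (limma, adjusted p = 1.97e-05 with 0.5 added). Another 3 of the 15 lncRNAs called higher were at 0 in all WT libraries as well, with means of 1.1, 1.47 and 2.77 FPKM in *ATG2*-silenced pollen (GeneID:107799030, GeneID:107815789 and GeneID:107804943). The 15 as a group had a median of 3.17 FPKM in *ATG2*-silenced pollen and 0.82 FPKM in WT, so most were weakly expressed. GeneID:107776012 and GeneID:107758973 had larger spreads, and GeneID:107758973 was at 5.7, 7.7 and 12.7 FPKM in *ATG2*-silenced pollen, against 1.51, 2.59 and 3.1 FPKM in WT. Their adjusted p of 0.0435 and 0.0375 was lost in most fits that left 1 library out. GeneID:107776012 lost its call without any library except WT replicate 3, at up to 0.149 without WT replicate 2, and GeneID:107758973 without any except WT replicate 3 and *ATG2*-silenced replicate 1, at up to 0.127 without WT replicate 1.

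Among the 4 lncRNAs called lower, GeneID:107797755 was the most abundant. It stood at 10.4, 7.1 and 10.3 FPKM in *ATG2*-silenced pollen, against 16.47, 21.97 and 17.4 FPKM in WT (log2 change -1.101, limma, adjusted p = 0.0276). Its call was lost without any of the libraries except WT replicate 3, at an adjusted p of up to 0.104 without WT replicate 2. GeneID:107781201 was listed at 0 in the 3 *ATG2*-silenced libraries, against 1.16, 1.53 and 1.4 FPKM in WT. GeneID:107769127 had a mean of 0.767 FPKM in *ATG2*-silenced pollen and 2.61 FPKM in WT. This lncRNA lies next to the protein coding GeneID:107816051 in the gene order of the RefSeq table. That gene moved in the opposite direction, at 2.3, 2.1 and 3.4 FPKM in *ATG2*-silenced pollen, against 0, 0.1 and 0.1 FPKM in WT (log2 change 2.33). Of 71 called genes with a place in that order, these were the 1 adjacent pair. For 28 of the genes named here, the nearest tested genes on either side were looked up, 56 in all, and 0 of them passed the adjusted p in limma.

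Large changes were also found among the unannotated transcripts. Transcript 15373 stood at 24.2, 26.6 and 23.6 FPKM in *ATG2*-silenced pollen, against 0, 0 and 1.3 FPKM in WT (limma, log2 change 4.93, standard error 0.51, adjusted p = 0.00336). WT replicate 3 was its 1 WT library above 0, and *ATG5*-silenced pollen had 0, 0 and 0.54 FPKM. Transcript 11284 stood at 15, 8.6 and 9.5 FPKM and transcript 2331 at 12.5, 8.1 and 25.5 FPKM in *ATG2*-silenced pollen, and both were listed at 0 in the 3 WT libraries. Transcript 2331 varied more between replicates, and its adjusted p of 0.0279 was lost without any library except WT replicate 3, at up to 0.119 without WT replicate 2. In the other direction, transcript 21886 was listed at 0 in all *ATG2*-silenced and all *ATG5*-silenced libraries, against 7.13, 6.72 and 4.6 FPKM in WT (limma, adjusted p = 2.68e-05). Since the libraries at 0 add no spread, that adjusted p can be too small. What these transcripts encode is not annotated.

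Protein coding genes without a name were the next group. GeneID:107761179 was the most abundant gene called higher, at 207.6, 240.8 and 230.5 FPKM in *ATG2*-silenced pollen, against 81.41, 75.29 and 115.9 FPKM in WT. Its mean was 2.49 times that of WT (log2 change 1.20, limma, standard error 0.21, adjusted p = 0.0321). The call held without WT replicate 3 (adjusted p = 0.0225) and was lost without any other single library, at up to 0.133 without WT replicate 1. GeneID:107788283 stood at 6.6, 9.1 and 6.0 FPKM, against 1.37, 1.04 and 2.3 FPKM in WT (log2 change 1.81, limma, adjusted p = 0.00581), and was called whichever library was left out. Higher changes with a wider WT spread were those of GeneID:107771538 and GeneID:107809897. GeneID:107771538 stood at 7.7, 9.8 and 8.2 FPKM, against 0.91, 0.46 and 2.5 FPKM in WT, with a log2 change of 2.38 (limma, standard error 0.34, adjusted p = 0.0137). GeneID:107809897 stood at 5.2, 8.8 and 8.7 FPKM, against 0.87, 0.36 and 2.7 FPKM in WT, with a log2 change of 2.22 (limma, standard error 0.42, adjusted p = 0.0441). In both, WT replicate 3 was the highest WT library. GeneID:107771538 lost its call without *ATG2*-silenced replicate 2 (adjusted p = 0.0696) or WT replicate 1 (0.0669), and GeneID:107809897 without any library except WT replicate 3, at up to 0.165 without WT replicate 1.

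Of the other protein coding genes named by the rule, GeneID:107795696, GeneID:107765242, GeneID:107763058 and GeneID:107816887 had log2 changes of 1.24 to 1.53. Their means were 5.87, 22.2, 6.70 and 8.73 FPKM in *ATG2*-silenced pollen, against 1.59, 8.18, 2.30 and 3.097 FPKM in WT. All 4 passed without WT replicate 3. All 4 failed without *ATG2*-silenced replicate 2, at an adjusted p of 0.0716 to 0.113, and without *ATG2*-silenced replicate 1, at up to 0.0841. Some of them failed without the other libraries as well, at up to 0.119 for GeneID:107763058 without WT replicate 2.

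Among annotated genes without a name that were called lower and had a mean of at least 5 FPKM in 1 of the groups, the change was largest for GeneID:107829087, which the RefSeq table does not hold. It stood at 1.9, 2.8 and 3.7 FPKM in *ATG2*-silenced pollen, against 13.7, 11.56 and 14.2 FPKM in WT (log2 change -2.19, limma, standard error 0.24, adjusted p = 0.00367). *ATG5*-silenced pollen had 2.94, 3.37 and 5.82 FPKM. The protein coding GeneID:107786229 stood at 9.7, 10.8 and 11 FPKM, against 46.95, 54.76 and 31.1 FPKM in WT (log2 change -2.11, limma, standard error 0.19, adjusted p = 0.00110). Both genes were called whichever library was left out. In the second, WT replicate 3 was the lowest WT library.

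Protein coding genes that fell by less included GeneID:107766126, with a mean of 3.23 FPKM in *ATG2*-silenced pollen and 9.58 FPKM in WT. GeneID:107827292, GeneID:107770883 and GeneID:107813596 fell by 1.33, 1.30 and 1.24 on the log2 scale. These genes were called in each of the 6 fits that left a library out. GeneID:107801037, with 3.60 FPKM in *ATG2*-silenced pollen and 7.10 FPKM in WT, and GeneID:107763692, with 8.13 and 16.4 FPKM, lay just past the 2-fold limit. GeneID:107801037 was within that limit without *ATG2*-silenced replicate 3 or WT replicate 2, at a log2 change of -0.94 each, and in 3 of the alternatives, at up to -0.89. GeneID:107763692 lost its call without any library except WT replicate 2, at an adjusted p of up to 0.119 without *ATG2*-silenced replicate 2. In *ATG5*-silenced pollen, GeneID:107827292 was at 28.84, 25.82 and 24.11 FPKM, against 6.4, 5.0 and 5.6 FPKM in *ATG2*-silenced pollen and 13.53, 14.06 and 13.6 FPKM in WT. GeneID:107770883 likewise was at 16.49, 21.05 and 20.1 FPKM in *ATG5*-silenced pollen, against 3.9, 3.9 and 5.5 FPKM in *ATG2*-silenced pollen and 9.89, 10.1 and 11.8 FPKM in WT. For both genes WT lay between the silenced lines. GeneID:107797956 was at 18.5, 15.1 and 27.8 FPKM in *ATG2*-silenced pollen, against 61.01, 55.15 and 47.9 FPKM in WT (log2 change -1.56, limma, adjusted p = 0.0167). The call was lost without *ATG2*-silenced replicate 1 (adjusted p = 0.0613) or 2 (0.0524) and without WT replicate 1 (0.0771) or 2 (0.0792).

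Among the genes with a name, 2 metabolic genes were called higher. *Gln1-3* (GeneID:107777858) encodes a cytosolic glutamine synthetase, which fixes ammonium into glutamine. It stood at 31.6, 46.8 and 41.4 FPKM in *ATG2*-silenced pollen, against 16.7, 15.16 and 21.8 FPKM in WT. The log2 change was 1.01 (limma, standard error 0.16, adjusted p = 0.0209), and *ATG5*-silenced pollen had 5.27, 7.16 and 6.0 FPKM. *GAPC* (GeneID:107817426) encodes a cytosolic glyceraldehyde-3-phosphate dehydrogenase of glycolysis. It stood at 25.1, 33.7 and 32.8 FPKM, against 7.69, 7.73 and 17.3 FPKM in WT (log2 change 1.41, limma, standard error 0.27, adjusted p = 0.0469). WT replicate 3 lay well above the other WT libraries, and the change was 0.72 against it alone. Both calls were lost in most fits that left 1 library out. With 1 added in place of 0.5, *Gln1-3* was within the 2-fold limit, at 0.99. Without *ATG2*-silenced replicate 2 the adjusted p was 0.0871 for *Gln1-3* and 0.167 for *GAPC*, without *ATG2*-silenced replicate 3 it was 0.0730 and 0.123, and without WT replicates 1 and 2 it was 0.0974 and 0.0914 for *Gln1-3* and 0.169 and 0.160 for *GAPC*. *GAPC* was also lost without *ATG2*-silenced replicate 1 (0.0850), with 0.1 added, without a filter, in a fit of the 6 libraries alone, with the replicate number as a block and with variances moderated without a trend or robust weighting. A second copy, *GAPC1* (GeneID:107787153), stood at 9.3, 10.3 and 10.2 FPKM, against 8.98, 9.02 and 10.5 FPKM in WT. Reads that match both copies could be divided between them in more than 1 way.

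Chaperone genes were among those lower. *hsp90* (GeneID:107770659), an ATP-dependent chaperone of signalling proteins, stood at 37.7, 35.6 and 32.9 FPKM in *ATG2*-silenced pollen, against 83.8, 91.58 and 58.0 FPKM in WT. The silenced mean was 45.5% of the WT mean (log2 change -1.23, limma, standard error 0.17, adjusted p = 0.0121). WT replicate 3 was the lowest WT library, and the change was -0.78 against it alone. The call of *hsp90* was lost without *ATG2*-silenced replicate 2 (adjusted p = 0.0608) or 3 (0.0513) and without WT replicate 1 (0.0613). *NtHsp70* (GeneID:107795135), which binds unfolded polypeptides, stood at 82.7, 84.6 and 84.0 FPKM, against 122.27, 134.16 and 115.9 FPKM in WT. Its replicates were close together, and it fell by 0.69 on the log2 scale (limma, standard error 0.084, adjusted p = 0.00581), below the 2-fold limit of a call. In *ATG5*-silenced pollen, *hsp90* was at 21.74, 24.22 and 23.19 FPKM and *NtHsp70* at 52.75, 49.69 and 54.64 FPKM.

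Of the 8 tested members of the chaperone list 2 were lower at the adjusted p and 0 higher, with a median log2 change of -0.01, beside 0.03 over all tested genes. The summed level of the list was 145.0 to 150.8 FPKM in *ATG2*-silenced libraries and 197.5 to 245.92 FPKM in WT libraries. *hsp90* and *NtHsp70* made up most of this sum in each library, so it mainly repeats their fall. *Hsp70* (GeneID:107766295), another gene of that family, stood at 8.2, 11.6 and 10.3 FPKM, against 5.92, 5.31 and 6.6 FPKM in WT. Its log2 change of 0.58 did not pass (limma, adjusted p = 0.0956). *HSP101*, a disaggregase, had means of 1.37 and 1.75 FPKM in *ATG2*-silenced and WT pollen (log2 change -0.37, adjusted p = 0.389). Of 8 tested genes in the list of endoplasmic reticulum chaperones and *BI-1*, 0 passed in limma and 2 had an unadjusted p under 0.05. The first of these was *PDI*, a protein disulfide isomerase, at 17.0, 24.5 and 21.2 FPKM, against 9.08, 8.87 and 11.7 FPKM in WT (log2 change 0.91, adjusted p = 0.0717). The other was *BI-1*, an inhibitor of cell death in that membrane, at 59.8, 58.2 and 62.3 FPKM, against 70.45, 69.22 and 70.2 FPKM in WT (log2 change -0.35, adjusted p = 0.0791). The 6 *BIP* genes, luminal Hsp70 proteins, had log2 changes of -0.08 to 0.15, and their WT libraries overlapped the *ATG2*-silenced ones.

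*MPK11* (GeneID:107814475) encodes a mitogen-activated protein kinase, an enzyme that passes signals on by phosphorylation. It stood at 6.5, 6.1 and 7.2 FPKM in *ATG2*-silenced pollen, against 12.62, 12.86 and 12.7 FPKM in WT (log2 change -1.02, limma, standard error 0.091, adjusted p = 9.48e-04). In *ATG5*-silenced pollen it was at 13.31, 12.97 and 12.54 FPKM as deposited, a range that spans the deposited WT levels. The scaling factors of those libraries, 0.751 to 0.791, were below those of WT, so scaling would place them higher relative to WT. That difference was not tested. The adjusted p of *MPK11* between *ATG2*-silenced and WT pollen stayed under 0.01 whichever library was left out. The change lies close to the 2-fold limit and was within it without *ATG2*-silenced replicate 2 (log2 change -0.96), with 1 added, with FPKM as deposited and with equal totals, at up to -0.90. Of 19 tested genes for MAP kinases and calcium-dependent kinases, *MPK11* alone passed the adjusted p in limma, and 7 had an unadjusted p under 0.05, beside 18.7% of all tested genes. Their median log2 change was 0.00.

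A further 7 genes with a name passed the adjusted p with changes under 2-fold. Each lost it in most or all fits that left 1 library out, with its sign kept. The mitochondrial carriers of di- and tricarboxylates *dtc1* and *dtc2* exchange organic acids across the inner membrane. *dtc1* (GeneID:107815847) stood at 40.6, 42.2 and 45.3 FPKM in *ATG2*-silenced pollen, against 64.06, 56.22 and 56.9 FPKM in WT (log2 change -0.59, limma, adjusted p = 0.0191). *dtc2* (GeneID:107783696) stood at 14.6, 12.2 and 12.6 FPKM, against 18.79, 17.95 and 21.3 FPKM in WT (log2 change -0.67, limma, adjusted p = 0.0424). In *ATG5*-silenced pollen the deposited levels were 14.91, 13.83 and 16.42 FPKM for *dtc1* and 9.02, 6.94 and 7.87 FPKM for *dtc2*. The scaling factors were 0.751 to 0.791 for *ATG5*-silenced and 1.06 to 1.11 for *ATG2*-silenced libraries, so scaling brings these levels closer. Whether the silenced lines differ in *dtc1* or *dtc2* was not tested. *CL4*, a plastid ribosomal protein L4 gene, fell by 0.45, and *APY1*, an apyrase that hydrolyses nucleotides, by 0.31 on the log2 scale. *brp1* fell by 0.41, whereas *PK* and *PKTL7* rose by 0.57 and 0.37. Without *ATG2*-silenced replicate 2 the adjusted p was 0.0908 for *dtc1*, 0.158 for *dtc2*, 0.162 for *CL4*, 0.144 for *APY1*, 0.123 for *brp1*, 0.118 for *PK* and 0.177 for *PKTL7*. In all, 4 of the 446 tested genes with a name were higher and 9 lower at the adjusted p, beside 0.973% and 0.592% of all tested genes.

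The rest of the autophagy machinery showed no change that passed. Of 11 tested genes, *ATG2* was the 1 lower and 0 were higher in limma, with 3 at an unadjusted p under 0.05. Leaving out *ATG2*, 9 of the other 10 had a positive log2 change, beside 14172 of all 26199 tested genes. The median of the 11 was 0.20, beside 0.03 over all tested genes. Under quantile normalization 7 of the 11 were positive and the median was 0.13. *JOKA2*, the selective autophagy receptor, stood at 2.1, 2.8 and 2.3 FPKM in *ATG2*-silenced pollen, against 1.42, 1.76 and 1.3 FPKM in WT (log2 change 0.43, limma, adjusted p = 0.208). *ATG9*, which codes for the membrane protein that works with ATG2, stood at 0.7, 0.7 and 0.6 FPKM, against 0.76, 0.57 and 0.6 FPKM in WT. *TOR*, the kinase that represses autophagy, was at 1.4, 1.9 and 1.6 FPKM, against 1.4, 1.29 and 1 FPKM in WT. These genes were weakly expressed, and in tables of 1 decimal such levels are coarse. In the phosphatidylinositol 3-kinase complex of autophagy, whose *ATG6* genes are also among the 11, 0 of 4 tested genes passed. *VPS34*, its catalytic subunit, was at 0.9, 1.9 and 0 FPKM in *ATG2*-silenced pollen, against 3.29, 2.66 and 3.5 FPKM in WT (log2 change -1.67, limma, standard error 0.46, adjusted p = 0.105). *VPS15*, the kinase that anchors it, was at 6.3, 6.8 and 6.4 FPKM, against 7.61, 7.48 and 5.8 FPKM in WT.

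Metabolic lists held the 2 genes named above and no others that passed. Of 11 tested genes for glycolysis and organic acids, *GAPC* was the 1 higher, and 5 had an unadjusted p under 0.05. Phosphoenolpyruvate carboxylase (*PEPC*) was at 11.2, 14.6 and 12.7 FPKM in *ATG2*-silenced pollen, against 7.31, 8.21 and 9.4 FPKM in WT (log2 change 0.47, limma, adjusted p = 0.0743). Of 15 tested genes for amino acid metabolism, *Gln1-3* was the 1 higher, and 7 had an unadjusted p under 0.05, beside 18.7% of all tested genes. The nitrate reductase gene *NIA2* was at 4.0, 3.5 and 4.1 FPKM, against 6.89, 9.27 and 4.8 FPKM in WT (log2 change -0.85, limma, adjusted p = 0.0851). For sugar uptake and sucrose metabolism 0 of 11 tested genes passed in limma and 7 had an unadjusted p under 0.05, again beside 18.7% of all, with a median log2 change of -0.22 (-0.08 with FPKM as deposited). The fructokinase gene *FRK2* and the hexokinase genes *Hxk1* and *Hxk1a* had changes of -0.29, -0.27 and -0.25, with no overlap between groups, as for the 12% of all tested genes that lay wholly below WT. Their means were above 100 FPKM, a level at which the median log2 change was -0.18 and 190 of 1305 genes had a positive one. The share wholly below WT at that level was not counted. Among the redox and iron genes 0 of 11 passed and 4 had an unadjusted p under 0.05, with a median of 0.23. *PHGPx*, a phospholipid hydroperoxide glutathione peroxidase gene, came closest, at 24.6, 27.5 and 29.0 FPKM, against 17.83, 17.58 and 18.8 FPKM in WT (adjusted p = 0.0635).

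**Figure D4:**
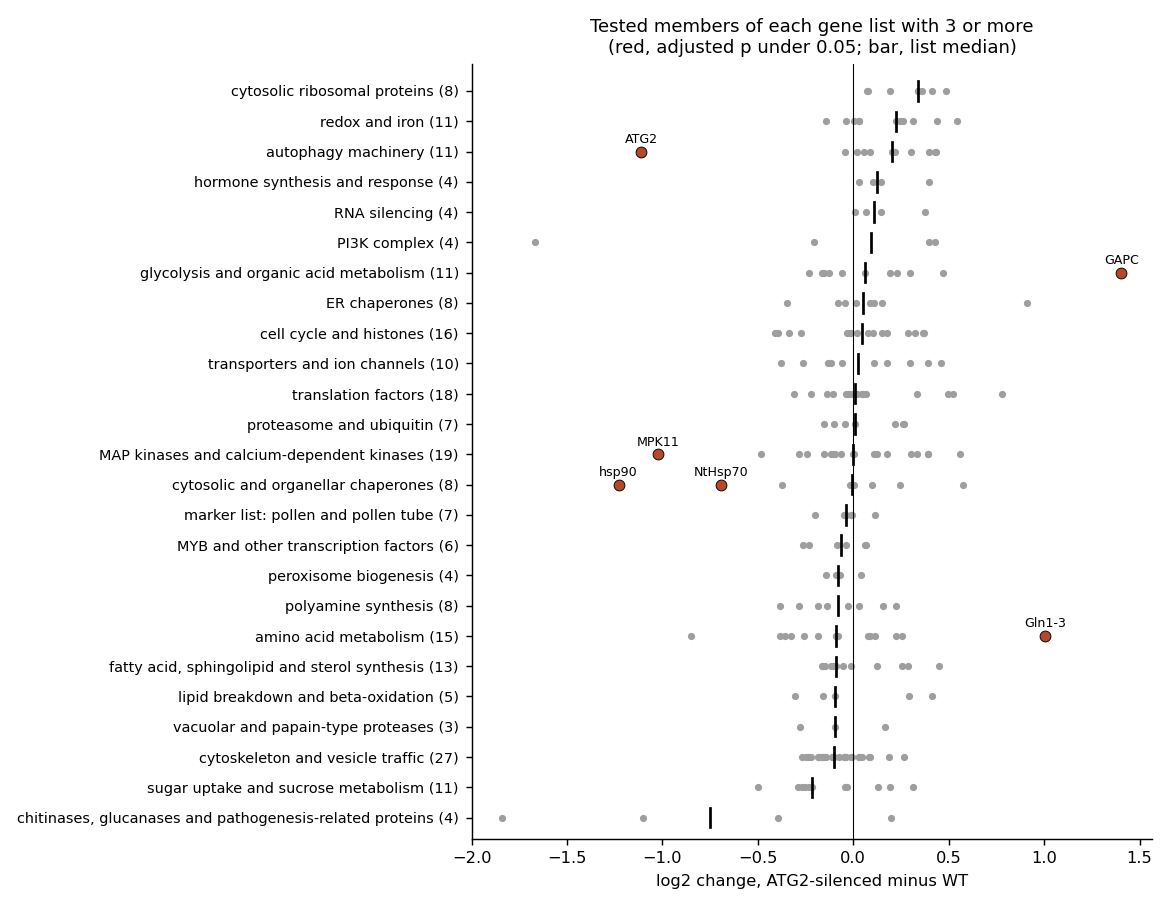
Log2 change (horizontal axis, *ATG2*-silenced minus WT) of each tested member of the gene lists with at least 3 tested members, whose number stands in parentheses. Black bars mark list medians, and the named red points are the 6 members with an adjusted p under 0.05.

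The 8 tested genes for cytosolic ribosomal proteins all had a positive log2 change, beside 14172 of all 26199 tested genes. Their median was 0.34, and under quantile normalization 6 of the 8 were positive. In limma 0 passed, and 2 had an unadjusted p under 0.05. Their summed level was 85.6 to 89.1 FPKM in *ATG2*-silenced libraries and 52.8 to 70.2 FPKM in WT libraries. *RPL23A* made up most of it, at 58.2, 57.0 and 62.2 FPKM, against 43.58, 37.36 and 47.4 FPKM in WT (log2 change 0.34, adjusted p = 0.199). Of 18 tested genes for translation factors 0 passed and 5 had an unadjusted p under 0.05, with a median of 0.01. In the list of chitinases, glucanases and pathogenesis-related proteins 0 of 4 passed in limma and 3 had an unadjusted p under 0.05, with a median of -0.75. *Sp41a*, a glucanase gene, was at 2.0, 0.9 and 2.9 FPKM, against 13.85, 5.32 and 4.8 FPKM in WT (log2 change -1.84, limma, adjusted p = 0.179). The spread of its WT libraries was larger than that of most list members. In total the 29 lists covered 242 tested genes, and 5 lists held a member past the adjusted p. For proteasome, peroxisome, polyamine synthesis, RNA silencing, cell cycle, lipid and vesicle traffic genes, limma gave 0 past the adjusted p in either direction. An unadjusted p under 0.05 was reached by 4 of 8 genes for polyamine synthesis and 6 of 27 for vesicle traffic. It was reached by 2 of 5 for lipid breakdown, 2 of 13 for lipid synthesis and 2 of 16 for cell cycle. The counts were 1 of 4 for RNA silencing, 0 of 7 for proteasome and 0 of 4 for peroxisome genes. These stand beside 18.7% of all tested genes.

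Median changes were also taken by transcript level. Genes with a mean of at least 100 FPKM had a median log2 change of -0.18, and 190 of 1305 had a positive one. With FPKM as deposited, without scaling, the median was -0.04 and 485 were positive. Genes between 2 and 5 FPKM had a median of 0.07. Under quantile normalization these medians were -0.05 at 100 FPKM or more and -0.02 between 2 and 5 FPKM. Lists of abundant genes, such as those for sugar metabolism or vesicle traffic, are read against these values, and the part of the transcript level in their medians was not tested.

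The labelled cell type was checked by its markers. All 7 pollen and pollen tube markers were tested, and their FPKM summed to 30177.6 to 31200.0 in *ATG2*-silenced libraries and 27769 to 29422.5 in WT libraries. Their median log2 change was -0.04 after scaling and 0.09 with FPKM as deposited, and 0 passed in limma, with 0 at an unadjusted p under 0.05. *ntp101*, a pollen gene, stood at 10369.1, 10224.9 and 9578.0 FPKM, against 8892.3, 9425.18 and 9438.2 FPKM in WT (log2 change -0.01, adjusted p = 0.962). Of 17 green tissue markers 2 were tested, and the list summed to 1.3 to 2.3 FPKM in *ATG2*-silenced libraries and 3.1 to 6.81 FPKM in WT libraries. These were *CAB21*, a chlorophyll a/b binding protein gene, with a log2 change of -0.87 (adjusted p = 0.101), and *PSBR*, of photosystem II, with -0.86 (adjusted p = 0.222). Markers of other floral tissue summed to 0.1 to 1.4 FPKM in *ATG2*-silenced and 0.5 to 1.08 FPKM in WT libraries, and root markers to at most 0.2 FPKM. Markers of tapetum and anther wall were not among the lists, so RNA of that tissue was not checked. The part of RNA from other tissues in the calls was not tested. In bulk pollen, fewer cells of a type and less RNA per cell cannot be told apart.

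WT replicate 3 lay closer to *ATG2*-silenced pollen than the other WT libraries did. Relative to the other WT libraries, it lay on the *ATG2*-silenced side for 69.6% of the tested genes, against 53.8% for WT replicate 1 and 52.8% for WT replicate 2. Against WT replicate 3 alone, 133 of the 157 genes called higher were still more than 2-fold higher, and 42 of the 52 called lower were still below 0.5-fold. The median log2 change of the genes called higher was 1.44 against WT replicate 3 and 1.70 against WT replicates 1 and 2, and that of the genes called lower was -1.35 and -1.42. Without WT replicate 3, 288 genes were called higher and 72 lower. Without WT replicates 1 and 2 in turn, 80 and 78 were higher and 28 and 26 lower. Leaving out *ATG2*-silenced replicates 1, 2 and 3 gave 90, 62 and 91 higher and 37, 32 and 41 lower. WT replicate 3 also shares the 1 decimal format of the *ATG2*-silenced tables, and with all libraries rounded to 1 decimal 159 genes were called higher and 52 lower. Of the 35 called genes named here, 18 kept an adjusted p under 0.05 whichever library was left out, and all 35 kept it without WT replicate 3.

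**Figure D5:**
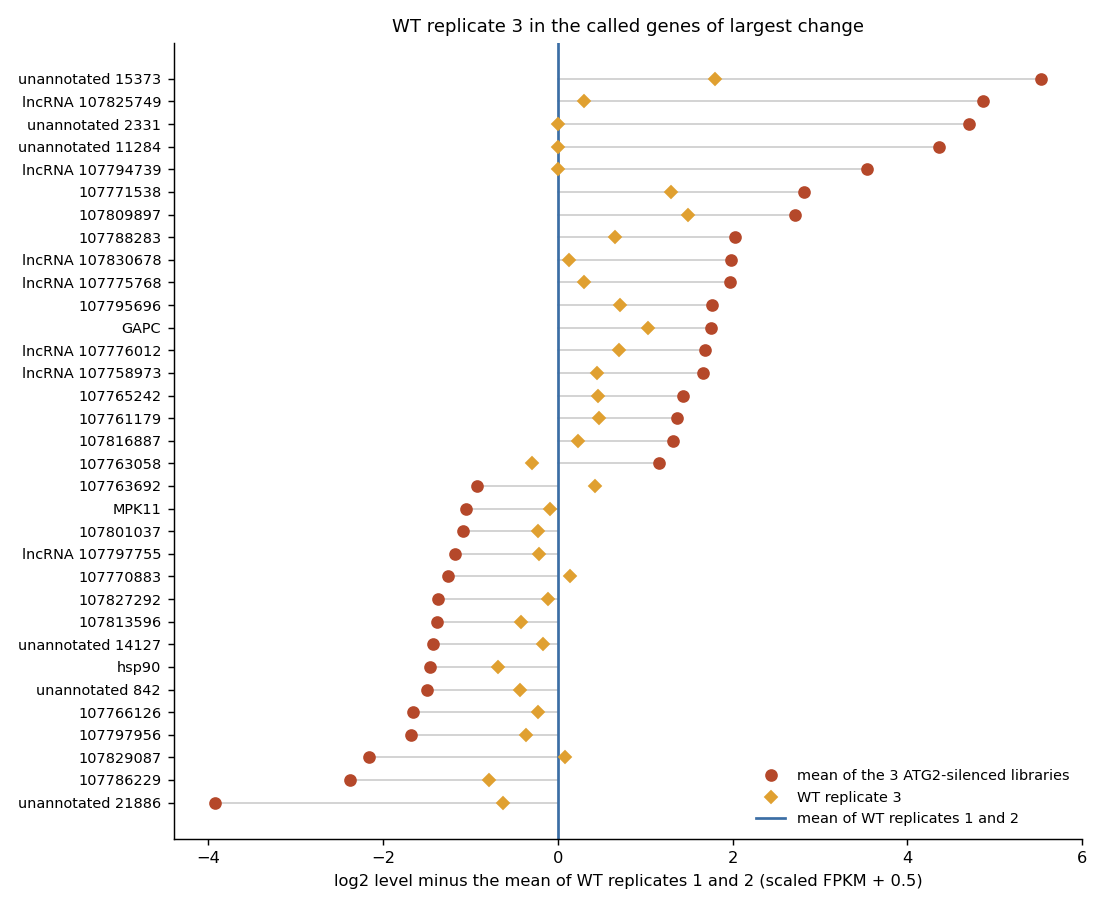
Log2 level of the *ATG2*-silenced mean (circles) and of WT replicate 3 (diamonds) relative to the mean of WT replicates 1 and 2 (vertical line), for the called genes of largest change. Unannotated transcript 15373, *GAPC*, 107771538 and 107809897 show WT replicate 3 more than 1 log2 unit towards *ATG2*-silenced pollen, whereas lncRNA 107794739 shows it at 0. The shift is largest for transcript 15373, at 1.80.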

How the data were processed

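Pollen RNA was sequenced on the MGIseq2000 after poly(A) selection. The authors trimmed reads with SOAPnuke, mapped them with HISAT2 and Bowtie 2 to the Ntab-TN90 annotation and quantified genes with RSEM, in versions not given in the sources used here. The deposited values are FPKM per gene, which the authors normalized for transcript length and mapped fragments. From every library's table, 1 line that names no gene was left out. Without counts, the count model of the study could not be run.

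In R 4.3.3, each library was divided by its median ratio over 14192 genes above 1 FPKM in all 9 libraries (factors 1.06 to 1.11 for *ATG2*-silenced and 0.978 to 1.04 for WT libraries), and 0.5 was added before log2. This understates changes of weakly expressed genes. limma 3.58.1 (trend, robust, with statmod 1.5.0) fitted all 9 libraries at once, and two-sided p-values were adjusted by Benjamini-Hochberg over 26199 genes. The fit was tested on simulated data. Figures used Python 3.11.15 and matplotlib 3.10.9.

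Alternatives changed the value added, the filter, the scaling, the model and the libraries. Names and kinds came from the RefSeq table of the assembly ASM71507v2, another build than that of the files, which matched 17841 of the tested genes. Named genes were the targets, up to 15 annotated called genes of largest change per direction whose groups did not overlap and whose mean reached 5 FPKM in either group, named genes past the adjusted p, 3 unannotated transcripts per direction, up to 4 members of each list by p, and the most abundant genes. The members and lists were chosen with earlier results of these data known, and further lncRNAs and list members were named after their values were seen.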

Additional observations from a re-analysis of the deposited data

How the results depend on the processing

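More genes were called higher than lower under every alternative run, though both counts varied. *ATG2* was lower in *ATG2*-silenced pollen in each alternative that tested it. Higher and lower calls numbered 139 and 42 with 0.1 added, 132 and 36 with 1 added, 152 and 49 with a filter of 1 FPKM, and 110 and 39 without a filter. FPKM as deposited gave 240 and 44, with a median log2 change over all genes of 0.13 in place of 0.03, equal totals 200 and 49, and quantile normalization 148 and 72. The 6 libraries alone gave 141 and 50, and variances moderated without a trend or robust weighting 123 and 42. With 1 library left out, the counts ran from 62 to 288 and from 26 to 72, and the log2 change of *ATG2* from -1.19 to -1.04. That change was -1.87 with 0.1 added and -0.75 with 1 added, which is within the 2-fold limit, and *ATG2* was not tested under the filter of 1 FPKM. Replicate numbers did not pair the libraries, since same-numbered *ATG2*-silenced and WT libraries deviated together with r = -0.01, -0.01 and -0.04. With the replicate number as a block, 139 and 46 genes were called. *ATG5*, not called, changed sign, with -0.0656 under quantile normalization and -0.1099 to 0.0882 with 1 library left out. Over the combinations of a named gene and an alternative, 60 lost the threshold and 412 kept their side of it, and over those with 1 library left out 106 lost it and 150 did not. FPKM without counts leaves the precision of levels under 1 FPKM unknown.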

Other observations

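Abundant transcripts that moved by more than 2-fold without being called were looked up after the data were seen. Of 1305 tested genes with a mean of at least 100 FPKM, 17 had a log2 change above 1 and 4 below -1, while GeneID:107761179 was the 1 called. In 16 of the 17 the 3 *ATG2*-silenced libraries were all above the 3 WT libraries, beside 14.9% of all tested genes. The 17 were picked by the size of their change, which favours such a separation. GeneID:107790214, without an entry in the RefSeq table, stood at 980.8, 1457.9 and 1261.0 FPKM in *ATG2*-silenced pollen, against 467.1, 424.9 and 632.9 FPKM in WT (log2 change 1.149, limma, adjusted p = 0.113). GeneID:107765726 stood at 395.7, 573.4 and 632.8 FPKM, against 114.3, 119.65 and 265.5 FPKM in WT (log2 change 1.63, adjusted p = 0.139). The lncRNA GeneID:107813950 stood at 248.5, 369.7 and 490.2 FPKM, against 105.54, 85.8 and 203.1 FPKM in WT (log2 change 1.40, adjusted p = 0.186). In all 11 annotated genes of the 17, *ATG2*-silenced replicate 1 was the lowest of its group and WT replicate 3 the highest of its own. WT replicate 3 lay on the *ATG2*-silenced side for 69.6% of all tested genes, and how many of those show this order was not counted.

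The other 6 of the 17 were unannotated transcripts, and in each *ATG2*-silenced replicate 2 was the highest of its group and replicate 3 the lowest. The share of all tested genes in this order was not counted either. The most abundant, transcript 27638, stood at 2291.3, 3570.9 and 1292.0 FPKM in *ATG2*-silenced pollen, against 397.65, 322.33 and 585.6 FPKM in WT (log2 change 2.25, limma, standard error 0.67, adjusted p = 0.140). It had a mean of 99.03 FPKM in *ATG5*-silenced pollen.

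The 5 most abundant annotated genes of each group were the same genes, and limma called none of them changed (adjusted p of 0.841 to 1.00). GeneID:107803115 stood at 7596.8, 7645.9 and 8538.2 FPKM in *ATG2*-silenced pollen, against 8365.29, 7966.79 and 6377.0 FPKM in WT, and at 2025.95, 2000.69 and 2090.42 FPKM in *ATG5*-silenced pollen.

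Libraries of *ATG2*-silenced pollen held 21090 to 21536 genes at 1 FPKM or more, against 19598 to 20764 in WT. After scaling the counts were 20077 to 20198 against 19612 to 19896. Exact two-sided permutation tests gave p = 0.10 for each, the smallest possible. WT replicate 3, whose table gives 1 decimal like those of *ATG2*-silenced pollen, held 20764 before scaling. WT replicates 1 and 2, with 2 decimals, held 19598 and 19617. These counts were not repeated with all libraries rounded to 1 decimal, so the part of the table format in them was not tested.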
